A study of Macaca mulatta with 25 samples.

Results

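The genes that carry glucose through glycolysis, bring pyruvate into the mitochondrion and turn the tricarboxylic acid (TCA) cycle were followed in rhesus macaque blastocysts. The set is a list of 43 gene symbols whose macaque Ensembl identifiers were looked up in the count table. The lookup uses no measured value, but the list was chosen with earlier results of these data known. Of these symbols, 42 had a row among the 35395 genes of the table: 15 in glycolysis, 9 in pyruvate entry and 18 in the TCA cycle. PKM, the pyruvate kinase gene, was not analysed here. LDHB had 2 rows, ENSMMUG00000002679 and a second entry, ENSMMUG00000019109, so 43 rows were described. The second entry never exceeded 5.48 CPM (counts scaled to a common library size by the trimmed mean of M-values, TMM), and reads shared between near-identical copies could not be separated. All 43 rows had at least 1 CPM in at least 5 libraries and were among the 13934 genes tested.

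Blastocysts are embryos with a fluid-filled cavity, an inner cell mass and an outer layer of trophectoderm, just before implantation. They were made in vitro from eggs of female macaques treated since about 2.5 years of age, before puberty, for 5 to 6 years. Control females (C) carried cholesterol implants and ate a standard chow with 15% fat, 59% carbohydrate and 26% protein. Testosterone females (T) ate the same chow and carried testosterone implants that raised circulating testosterone to 3 to 5 times normal. Western-style diet females (WSD) ate 36% fat, 46% carbohydrate and 18% protein, and the label for this group names no implant. The combined group (TWSD) had testosterone implants and the Western-style diet. Each group began with 10 females, and 10 C, 7 T, 6 WSD and 3 TWSD females underwent ovarian stimulation with recombinant gonadotropins, the others being kept out by illness, mainly endometriosis. All eggs were fertilised with semen of 4 males and the embryos were cultured up to day 8, and blastocysts were freed of the zona pellucida and frozen before RNA isolation. There were 5 C, 10 T, 8 WSD and 2 TWSD libraries. The labels tie no library to a mother, a father or a collection day and do not say whether 1 library is 1 embryo, so p-values measure the spread between libraries, some of which may share a mother.

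Glycolysis splits glucose into pyruvate in the cytosol. Pyruvate is either reduced to lactate or enters the mitochondrion, where the pyruvate dehydrogenase complex turns it into acetyl-CoA for the TCA cycle. Early embryos use pyruvate as a main fuel, and glucose uptake increases as the blastocyst forms. Several steps have more than one gene (HK1 and HK2, LDHA and LDHB), and the choice between them differs among tissues.

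Library totals ran from 14219054 to 35544542 counts. Trophectoderm markers were present in all groups, with 5 of 7 listed genes matched and a summed level of 1574 to 17325 CPM. Epiblast markers (5 of 6 matched) summed to between 5.96 and 1411 CPM for C, 616 and 1264 for T, 326 and 982 for WSD, and 624 and 735 for TWSD. C 1 held both the lowest trophectoderm sum (1574 CPM) and the highest epiblast sum (1411 CPM) of the 25 libraries. Syncytiotrophoblast markers (5 of 5 matched) summed to between 45.6 and 10295 CPM for C and 57.7 and 2973 for T, against 67.5 and 129 for WSD and 29.2 and 31.0 for TWSD. CGA, a hormone subunit made by the placenta, was at 1004 to 3025 CPM in C 8, C 11, C 12 and T 1 and at most 4.24 CPM in the other 21 libraries. Cumulus and granulosa markers (6 of 6 matched) reached 934 CPM in C, 99.6 in T, 16.9 in WSD and 8.16 in TWSD. The 934 CPM was C 11 alone, from VCAN (667 CPM) and HAS2 (267 CPM). FSHR and INHBA were at 0 there, and AMH and CYP19A1 at 0.075 CPM. The 99.6 CPM was T 1, mostly from CYP19A1 (78.2 CPM), which was highest in C 12 at 376 CPM. Sperm markers (4 of 4 matched) summed to at most 0.512 CPM, with PRM2 at 0 in all 25 libraries. C 12 and TWSD 2 also stood apart in scaling, with TMM factors of 0.708 and 0.763 against 0.945 to 1.096 elsewhere. Fewer cells of a type and less RNA per cell cannot be told apart in these libraries.

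**Figure D1:**
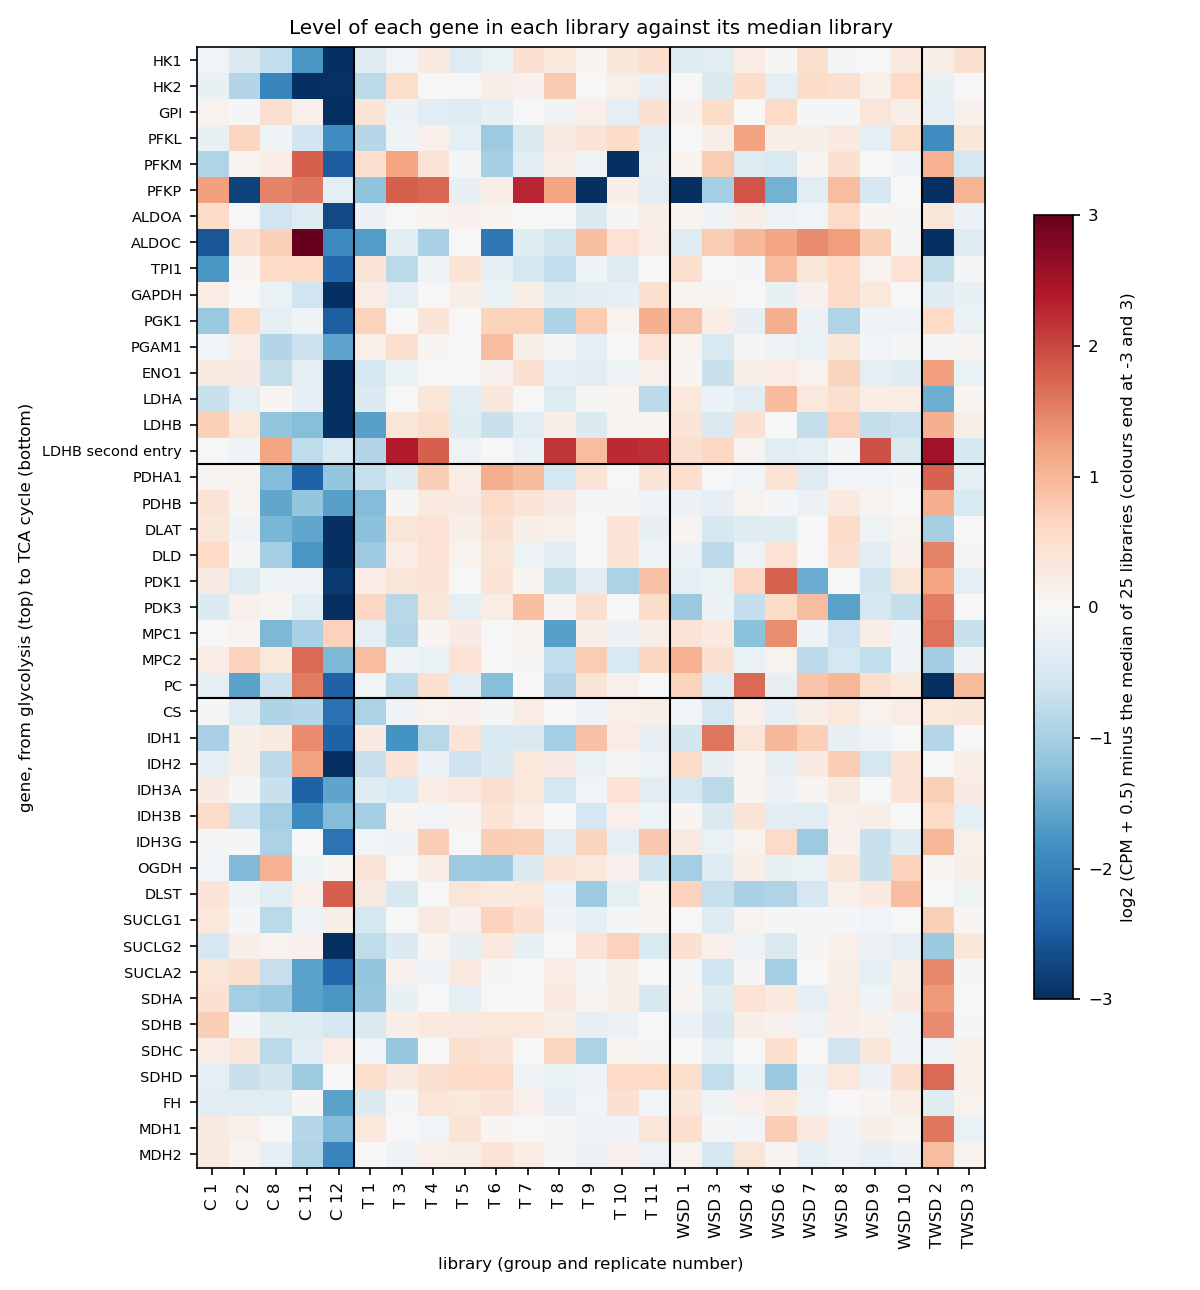
Each row is 1 gene and each column 1 library. Colour gives log2 (CPM + 0.5) minus the median of the 25 libraries for that gene, and black lines separate the 4 groups and the 3 stages. The C 12 column is the lowest of all for 28 of the 43 rows, and the TWSD 2 column is the highest for 18.

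HK2 was the only member that edgeR called in T or in WSD against C, and the call depended on the setting. Hexokinases trap glucose in the cell as glucose 6-phosphate, and HK2 is the hormone- and growth-responsive form. For C 1, C 2, C 8, C 11 and C 12 respectively HK2 was 553, 351, 165, 28.6 and 82.5 CPM. In T the lowest library was at 366 CPM (T 1), the median at 676.5 and the highest at 1112 (T 8). In WSD the range was 479 to 968 CPM with a median of 806.5, and the TWSD libraries stood at 552 and 649. C 1 lay inside the range of both treated groups, and the other 4 controls lay below every treated library.

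HK2 rose by 1.58 ± 0.42 (log2, SE) in T against C (edgeR quasi-likelihood test, Benjamini-Hochberg adjusted p = 0.0329). It rose by 1.70 ± 0.44 in WSD against C (adjusted p = 0.0284). Both comparisons use the same 5 controls. The combined group gave 1.35 against C without a call, and T and WSD differed by -0.12. The interaction, the diet effect with testosterone less the effect without, was -1.93 ± 0.74 for HK2 (adjusted p = 0.247).

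The HK2 call depended on which controls were included. Without C 8, C 11 and C 12 the change was 0.68 in T and 0.80 in WSD (adjusted p = 0.977 and 0.703), and leaving out C 8 or C 12 alone ended both calls. The change was then 1.47 and 1.59 without C 8 and 1.37 and 1.49 without C 12. Leaving out C 11, the lowest control for HK2, kept both edgeR calls, at 1.29 in T and 1.41 in WSD (adjusted p = 0.0420 and 0.0299). With C 8, C 11 and C 12 all left out, edgeR called 0 of all genes in T and 1 in WSD. For T the call also ended without T 8 or T 10, at adjusted p = 0.0501 and 0.05003. With limma voom and quality weights the changes were 1.67 and 1.81 and the calls ended (adjusted p = 0.186 and 0.143), and with scaling by library totals that in T at 0.0617. C 8, C 11 and C 12 were the C libraries with high CGA and syncytiotrophoblast markers, and the part of those cells in the HK2 difference was not tested.

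HK1, the broadly expressed hexokinase, was also low in C 11 and C 12 but was not called by edgeR. It was at 342, 266, 215, 107 and 31.2 CPM in C 1, C 2, C 8, C 11 and C 12. In T it ran from 274 to 508 CPM with a median of 405, in WSD from 280.5 to 499 with a median of 365, and in TWSD it was 407 and 495. The change was 1.03 ± 0.33 in T (adjusted p = 0.0736) and 0.97 ± 0.34 in WSD (adjusted p = 0.1002). DESeq2 called HK1 in both, at 1.00 and 0.94 (adjusted p = 0.0266 and 0.0469).

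The balance between the hexokinases was read as the log2 ratio of HK2 to HK1 counts in each library. Counts were not divided by transcript length, so the sign of a ratio does not say which gene had more transcripts, and the difference between groups alone is read. For C 1, C 2, C 8, C 11 and C 12 respectively the ratio was 0.69, 0.40, -0.38, -1.90 and 1.40. It ran from 0.08 to 1.47 in T (median 0.72) and from 0.53 to 1.35 in WSD (median 1.06), and was 0.44 and 0.39 in TWSD. The mean ratio was 0.04 ± 1.26 (SD, n = 5) in C, 0.82 ± 0.46 (SD, n = 10) in T and 1.00 ± 0.27 (SD, n = 8) in WSD. The exact two-sided permutation p was 0.0823 for T against C and 0.0319 for WSD against C, and after adjustment over the 27 ratio tests these were 0.555 and 0.430. The control spread was wide in both directions, with C 11 the lowest and C 12 among the highest ratios.

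**Figure D2:**
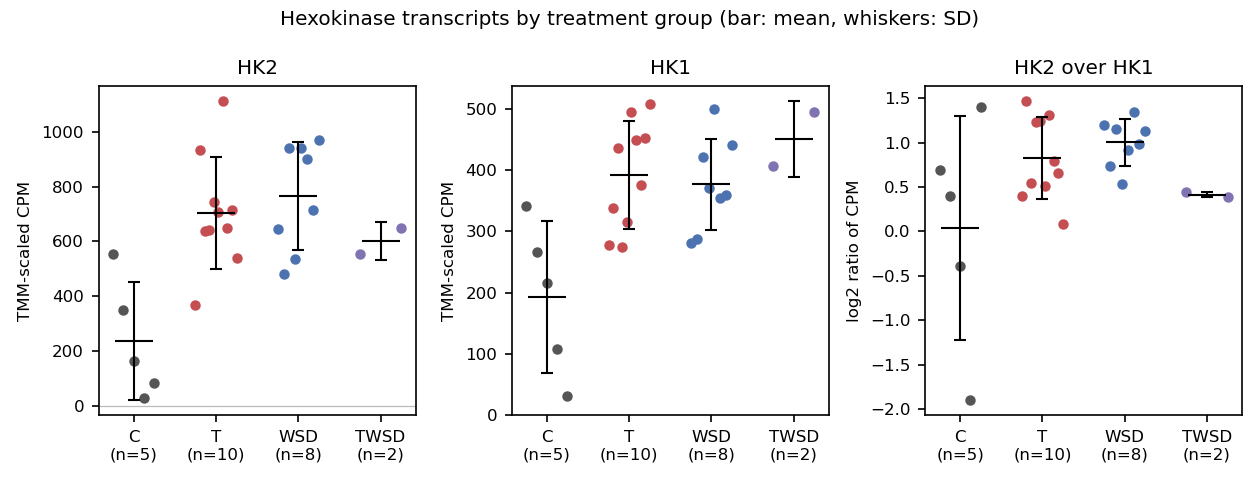
Points are libraries by treatment group. The left and middle panels give HK2 and HK1 in TMM-scaled CPM and the right panel the log2 ratio of HK2 to HK1, with the mean (bar) and SD (whiskers). HK2 lies between 366 and 1112 CPM in the treated libraries, and 4 of the 5 controls lie below 366.

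The other glycolysis genes were not called by edgeR in any comparison. DESeq2 called, beside HK1 and HK2, PGAM1 in T (0.66, adjusted p = 0.0419) and ALDOC in TWSD (-2.94, adjusted p = 0.0462). Of the 16 glycolysis rows, 13 had a positive log2 change in T and 13 in WSD, with medians of 0.31 and 0.48. Over all 43 rows 34 were positive in T and 37 in WSD, with medians of 0.39 and 0.43. Over all 13934 genes 43.8% and 43.4% were positive, with a median of -0.12 in each. Calls by edgeR in T against C covered 4.11% of all genes tested (0.337% higher and 3.77% lower), against 1 higher and 0 lower among the 43 rows. In WSD against C they covered 4.07% (0.466% higher and 3.6% lower), again against 1 higher and 0 lower. At an unadjusted p under 0.05 there were 11 higher and 1 lower rows in T, against 4.36% higher and 13.9% lower of all genes. In WSD there were 6 higher and 0 lower, against 4.41% and 13.9%. DESeq2 called 4 higher and 0 lower rows in T, against 1.21% and 6.7% of all genes, and 3 higher and 0 lower in WSD, against 1.44% and 7.06%. Without C 8, C 11 and C 12 the medians over the 43 rows were 0.05 in T and 0.06 in WSD, against 0.08 and 0.06 over all genes. In each comparison 24 rows were then positive, against 55.6% and 53.8% of all genes, a share near the background.

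**Figure D3:**
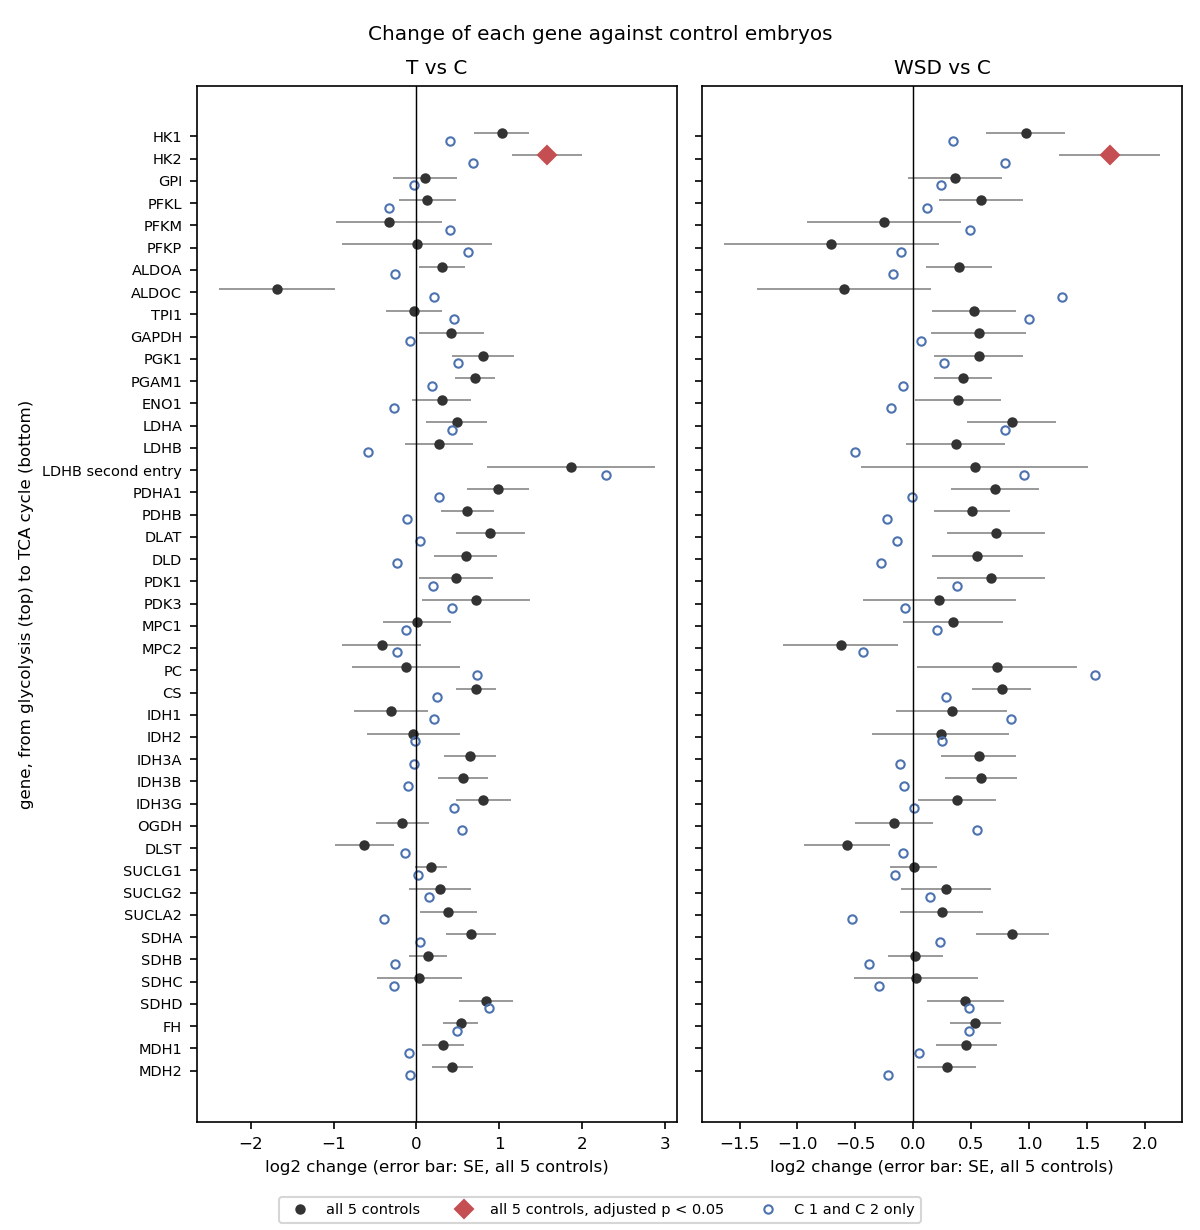
Points give the log2 change of each gene in T against C (left) and WSD against C (right). Filled points with SE bars use all 5 controls, the diamond marks HK2, the row with an adjusted p under 0.05, and open circles use C 1 and C 2 alone. With all 5 controls the points centre on 0.39 and 0.43, and with C 1 and C 2 alone on 0.05 and 0.06.

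No member separated the T libraries or the WSD libraries from the controls without overlap. Among all genes tested this was so for 0.179% (T higher) and 0.1% (T lower), and for 0.459% (WSD higher) and 0.237% (WSD lower). T and WSD were not separated for any member, against 0.00718% (T higher) and 0% (T lower) of all genes. In T against WSD edgeR called 0 of the 43 rows and 0% of all genes, and 237 genes had an unadjusted p under 0.05, where DESeq2 called 6 genes and limma voom 0. The smallest p among members there belonged to TPI1, triose phosphate isomerase, at -0.55 ± 0.29 (adjusted p = 1.00). ALDOC, IDH1, the second LDHB entry and IDH3G followed, at -1.08, -0.64, 1.33 and 0.43 on the log2 scale.

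Phosphofructokinase commits sugar to glycolysis, and its L, M and P forms differ in tissue and regulation. PFKL was at 359, 656, 381, 280.1 and 115 CPM in C 1, C 2, C 8, C 11 and C 12. It ran from 196 to 613 CPM in T (median 361) and from 349 to 972 in WSD (median 484), and was 116 in TWSD 2 and 528 in TWSD 3. PFKL overlapped between all groups, and C 12 and TWSD 2 were its lowest libraries. PFKM, the muscle form, was at 8.75, 17.9, 19.9, 59.7 and 2.61 CPM in the controls in the same order. It ran from 0.0912 CPM (T 10, from 2 counts) to 39.2 in T with a median of 15.9, from 12.2 to 28.8 in WSD with a median of 17.4, and was 35.2 and 11.7 in TWSD. PFKP, the platelet form, was at 23.1, 0.975, 27.7, 29.7 and 7.73 CPM in the controls. Its T range was 0.351 (T 9, 8 counts) to 48.2 CPM with a median of 11.1, and its WSD range 0.769 (WSD 1, 12 counts) to 36.6 with a median of 7.05. TWSD 2 had a single PFKP count (0.0644 CPM) and TWSD 3 had 20.02 CPM. PFKP and PFKM varied widely between libraries: leaving out C 12, the highest library was 748 and 654 times the lowest, against 8.4 times for PFKL. The ratios of PFKP to PFKL and of PFKM to PFKL differed between groups in none of 6 tests (smallest exact permutation p = 0.199, adjusted p = 0.662).

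Aldolase splits the 6-carbon sugar, and ALDOA is the ubiquitous and ALDOC the brain form. ALDOA was at 1962, 1335, 892, 1039 and 207 CPM in C 1, C 2, C 8, C 11 and C 12, from 1015 to 1548 in T (median 1370), from 1215 to 1995 in WSD (median 1350), and at 1693 and 1203 in TWSD. ALDOC was at 1.88, 18.9, 22.5, 142 and 3.24 CPM in the controls, from 2.7 to 25.6 in T (median 10.5), from 10.5 to 37.0 in WSD (median 25.5), and at 0.193 (3 counts) and 10.2 in TWSD. ALDOC was thus spread most widely among controls, with C 11 above every other library. The log2 ratio of ALDOC to ALDOA averaged -7.10 ± 1.03 (SD, n = 10) in T and -5.94 ± 0.65 (SD, n = 8) in WSD. This difference of -1.16 had the smallest p of the 27 ratio tests (exact permutation p = 0.0137, adjusted p = 0.369), and the 2 groups overlapped.

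Lactate dehydrogenase joins pyruvate and lactate, with LDHA favoured in muscle and fast-growing cells and LDHB in heart. LDHA was at 412, 543, 689, 555 and 42.9 CPM in C 1, C 2, C 8, C 11 and C 12, from 382 to 852 in T (median 657), from 525 to 1267 in WSD (median 794), and at 237 and 692 in TWSD. LDHB was at 492.6, 374, 132, 124.7 and 37.5 CPM in the controls, from 97.6 (T 1) to 436 in T (median 281), from 185 to 489 in WSD (median 262), and at 631 and 341 in TWSD. LDHA and LDHB went apart in some libraries: C 8 held the highest control level of LDHA and a low level of LDHB, and TWSD 2 held the lowest LDHA and the highest LDHB of the treated libraries. The log2 ratio of LDHB to LDHA lay between -2.38 and 0.26 for C, -2.33 and -0.26 for T, and -2.14 and -0.33 for WSD, and was 1.41 in TWSD 2 and -1.02 in TWSD 3. None of its 3 tests passed (smallest exact permutation p = 0.344, adjusted p = 0.668).

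GAPDH, which makes the first NADH of the pathway, ran from 1895 to 4217 CPM in 24 libraries and stood at 73.7 CPM in C 12. ENO1, enolase, ran from 2383 to 9217 CPM outside C 12, with TWSD 2 at the top, and stood at 328 in C 12. GPI, which turns glucose 6-phosphate into fructose 6-phosphate, ran from 219 to 425 CPM outside C 12, against 9.51 in it. PGAM1, phosphoglycerate mutase, averaged 91.3 ± 42.0 CPM (SD, n = 5) in C and 149 ± 38.7 (SD, n = 10) in T, a log2 change of 0.70 ± 0.24 that did not pass (adjusted p = 0.0990). TPI1 averaged 317 ± 222 CPM (SD, n = 5) in C, 311 ± 91.2 (SD, n = 10) in T and 456 ± 110 (SD, n = 8) in WSD.

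For pyruvate entry edgeR called no row in any comparison, and DESeq2 called PDHA1 in TWSD (1.65, adjusted p = 0.0264). Of its 9 rows, 7 were positive in T and 8 in WSD, with medians of 0.59 and 0.55. The pyruvate dehydrogenase complex holds PDHA1 and PDHB (its E1 enzyme), DLAT (E2) and DLD (E3, shared with other complexes). PDHA1 was at 799, 817, 307, 140.1 and 338 CPM in C 1, C 2, C 8, C 11 and C 12. It ran from 465.9 (T 1) to 1599 CPM in T (median 935) and from 574 to 1061 in WSD (median 721), and was 2591 in TWSD 2 and 626 in TWSD 3. C 1 and C 2 stood inside the treated range and the other controls below it. The change of PDHA1 in T against C was 0.99 ± 0.37 (adjusted p = 0.136).

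PDHB, DLAT and DLD had the same low libraries as PDHA1. For C 1 and C 2 PDHB was 1334 and 1058 CPM, and for C 8, C 11, C 12 and T 1 respectively 340.3, 452, 324 and 405, against 727 to 2137 in the other treated libraries. For C 1 and C 2 DLAT was 544 and 399.6 CPM, and for C 8, C 11, C 12 and T 1 respectively 166, 146, 22.3 and 183, against 214 to 628 in the other treated libraries. For C 1 and C 2 DLD was 918 and 583 CPM, and for C 8, C 11, C 12 and T 1 respectively 303, 179, 72.5 and 283, against 351 to 1690.1 in the other treated libraries. All 4 core subunit genes thus had their 4 lowest levels in C 8, C 11, C 12 and T 1.

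Exactly these 4 libraries, the ones with CGA, were the 4 lowest for 8 of the 43 rows (18.6%): LDHB, PDHA1, PDHB, DLAT, DLD, CS, IDH3B and SDHA. The same held for 204 of all genes tested (1.46%). They were the 4 highest for 0 of the 43 rows and for 2.37% of all genes. CS, citrate synthase, was at 398, 418, 161 and 390.3 CPM in C 8, C 11, C 12 and T 1, against 529.7 to 954 in the other 21 libraries. SDHA was at 125.4, 90.2, 80.7 and 124 CPM in them, against 134 to 669 in the others. The 4 libraries were set apart after their values had been seen, so these counts describe the libraries and carry no test.

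**Figure D4:**
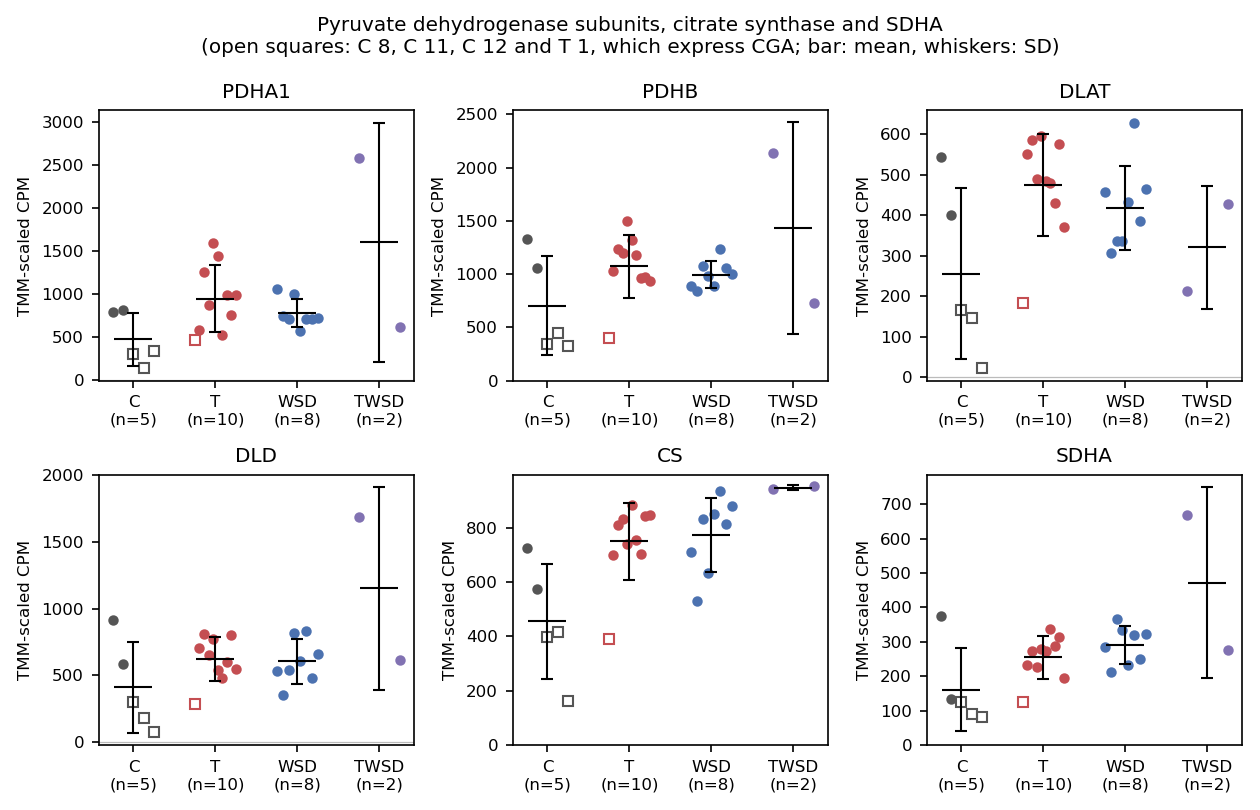
Points are libraries by treatment group, in TMM-scaled CPM, with the mean (bar) and SD (whiskers) of each group. Open squares mark C 8, C 11, C 12 and T 1, which lie below all 21 other libraries in each of the 6 panels.

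Pyruvate dehydrogenase kinases switch the complex off by phosphorylation. PDK1, also a hypoxia target, was at 70.6, 45.0, 53.8, 55.3 and 7.63 CPM in C 1, C 2, C 8, C 11 and C 12. It ran from 30.7 to 109.8 CPM in T with a median of 65.3, from 20.7 to 204 (WSD 6) in WSD with a median of 55.7, and was 135 and 49.1 in TWSD. PDK3 was at 15.9, 23.9, 22.7 and 16.8 CPM in the first 4 controls and had no count in C 12, where 3 counts would be 0.11 CPM. It ran from 11.9 to 40.3 CPM in T with a median of 26.1, from 6.68 to 41.3 in WSD with a median of 13.8, and was 62.8 and 21.2 in TWSD. PDK1 and PDK3 overlapped between all groups, and the ratio of PDK3 to PDK1 passed no test (smallest exact permutation p = 0.113, adjusted p = 0.575).

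MPC1 and MPC2 form the carrier that lets pyruvate into the mitochondrion. MPC1 ranged from 9.92 to 98.4 CPM, with TWSD 2 highest, and MPC2 from 2.25 to 22.3 with C 11 highest. PC, pyruvate carboxylase, which feeds the cycle with oxaloacetate, averaged 14.9 ± 17.6 CPM (SD, n = 5) in C, 13.7 ± 5.10 (SD, n = 10) in T and 24.6 ± 12.3 (SD, n = 8) in WSD. PC was at 29.5 CPM in TWSD 3 and at 0.129 CPM, or 2 counts, in TWSD 2. PC in the TWSD libraries thus lay below and inside the range of the other groups.

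In the TCA cycle edgeR called no row in any comparison. DESeq2 called CS in T, WSD and TWSD (adjusted p = 0.0416, 0.0333 and 0.0397) and MDH1, SDHA and SDHD in TWSD (adjusted p = 0.0361, 0.0139 and 0.0147). Of its 18 rows, 14 were positive in T and 16 in WSD, with medians of 0.35 and 0.31. CS, which joins acetyl-CoA to oxaloacetate, averaged 455 ± 211 CPM (SD, n = 5) in C, 750.4 ± 142 (SD, n = 10) in T and 773 ± 137 (SD, n = 8) in WSD, and was 942 and 954 in TWSD. Its change was 0.72 ± 0.25 in T (adjusted p = 0.0956) and 0.76 ± 0.25 in WSD (adjusted p = 0.0848). Without C 8, C 11 and C 12 the CS changes were 0.24 and 0.28. The change in WSD was 0.54 ± 0.22 for FH, fumarase (adjusted p = 0.177), and 0.85 ± 0.31 for SDHA, the catalytic subunit of succinate dehydrogenase (adjusted p = 0.125).

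The isocitrate dehydrogenases differ in cofactor and place. IDH3A, IDH3B and IDH3G form the NAD enzyme of the cycle, and IDH1 (cytosol) and IDH2 (mitochondrion) use NADP. IDH3A averaged 295 ± 189 CPM (SD, n = 5) in C, 461 ± 121 (SD, n = 10) in T and 436 ± 112 (SD, n = 8) in WSD. IDH1 averaged 172 ± 144 CPM in C (SD, n = 5), 139 ± 70.3 (SD, n = 10) in T and 216 ± 120 (SD, n = 8) in WSD. IDH2 ran from 121 to 481 CPM in 24 libraries and was at 0.366 CPM, or 7 counts, in C 12. C 11 held the highest IDH2 of the 25 libraries, the highest IDH1 among controls (403 CPM) and the lowest IDH3A of the 25 (82.0 CPM). The ratio of IDH2 to IDH1 passed no test (smallest exact permutation p = 0.128, adjusted p = 0.575).

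SUCLG1, the common subunit of succinyl-CoA synthetase, averaged 276 ± 73.4 CPM (SD, n = 5) in C, 312 ± 76.6 (SD, n = 10) in T and 277 ± 26.0 (SD, n = 8) in WSD. SUCLA2 and SUCLG2 set whether ATP or GTP is made, and the ratio of SUCLG2 to SUCLA2 averaged -1.67 in C, -1.67 in T and -1.49 in WSD (smallest exact permutation p = 0.371). OGDH, of the oxoglutarate dehydrogenase complex, changed by -0.17 in T and -0.16 in WSD, and DLST, its E2 enzyme, by -0.63 and -0.57, none of them past the test. DLST was the member with its highest level in C 12, at 117 CPM against 15.5 to 64.0 elsewhere. SDHB, SDHC and SDHD ranged from 109 to 414, 0.981 to 4.64 and 9.24 to 68.2 CPM. MDH2, the mitochondrial malate dehydrogenase, averaged 947 ± 471 CPM (SD, n = 5) in C and 1277 ± 176 (SD, n = 10) in T, and its ratio to the cytosolic MDH1 passed no test (smallest exact permutation p = 0.0822, for T against WSD, adjusted p = 0.555).

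In the combined group edgeR called 0 of the 43 rows against C, where 1.2% of all genes were called (0.861% higher and 0.337% lower). At an unadjusted p under 0.05, 14 rows were higher and 1 lower, against 8.66% and 13.3% of all genes. DESeq2 called 5 higher and 1 lower, against 3.06% and 11.3%. The median change was 0.62 over the 43 rows and -0.38 over all genes, and 35 rows were positive against 39.5% of all genes. The smallest p belonged to SDHA (1.55 ± 0.42, adjusted p = 0.0598), SDHD, a membrane anchor of the same enzyme (1.62 ± 0.46, adjusted p = 0.0673), PDHA1 (1.74 ± 0.51, adjusted p = 0.0765), MDH1 (1.19 ± 0.36, adjusted p = 0.0831) and CS (1.06 ± 0.35, adjusted p = 0.101). HK1, CS, IDH3G and SDHD were above all 5 controls in both TWSD libraries, as were 5.29% of all genes, and no row was below them in both, against 6.74%.

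TWSD 2 carried most of these differences. SDHA was at 669 CPM in TWSD 2 and 275.5 in TWSD 3, SDHD at 68.2 and 23.2, and MDH1 at 1242 and 361. Without TWSD 2 the changes against C were 0.80 for SDHA, 0.66 for SDHD, 0.41 for PDHA1, 0.06 for MDH1 and 1.09 for CS. Without TWSD 3 edgeR called 11 rows, 9 higher and 2 lower, with the lone library assumed to vary like the other groups, and 6.47% of all genes were then called higher and 13.6% lower. CS was alike in both libraries, at 942 and 954 CPM. Against the mean of the single treatments edgeR called 0 of 43 rows (0.1% of all genes, 0.0646% higher and 0.0359% lower), with 5 higher and 0 lower rows at an unadjusted p under 0.05 (8.07% and 6.33% of all genes). These were SDHB (0.83 ± 0.29, adjusted p = 0.186), MDH1 (0.80 ± 0.32, 0.249), SDHD (0.98 ± 0.39, 0.257), SUCLA2 (0.96 ± 0.43, 0.302) and SDHA (0.80 ± 0.37, 0.325). Without TWSD 3 edgeR called 6 rows higher and 3 lower by adjusted p, against 6.98% and 12.5% of all genes. The interaction was called for 0 rows (0.0718% of all genes, 0.0431% higher and 0.0287% lower), with 0 higher and 1 lower row, HK2, at an unadjusted p under 0.05 (8.6% and 4.96% of all genes). FH (-0.75 ± 0.38, adjusted p = 0.383), LDHA (-1.29 ± 0.66, 0.400), SDHB (0.75 ± 0.39, 0.409) and DLAT (-1.27 ± 0.73, 0.453) followed. Without TWSD 3 it was called for 1 row higher and 2 lower, against 5.68% and 10.5% of all genes.

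TWSD 2 had the highest level of the 25 libraries for 18 of the 43 rows, 10 of them in the TCA cycle and 5 in pyruvate entry, where 15.6% of all genes were highest in it. It had the lowest level for 3 rows (PFKP, ALDOC and PC) against 16.1% of all genes. Its highest rows were ENO1, both LDHB entries, PDHA1, PDHB, DLD, PDK3 and MPC1 among the upstream steps. DLAT, at 214 CPM, was not raised with the other subunits of its complex in TWSD 2. TWSD 3 had the highest level for CS alone and the lowest for no row. Primitive endoderm markers (4 of 4 matched) summed to 105 CPM in TWSD 2 and 414 in TWSD 3, against 329 to 928 in the other groups. The oocyte gene GDF9 was at 68.4 CPM in TWSD 2 and 11.6 in TWSD 3, and at 99.9 in T 11. ZP2 and BMP15, also oocyte genes, were at 0 in TWSD 2. What part cell makeup had in the TWSD 2 levels was not tested.

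C 12 had the lowest level of the 25 libraries for 28 of the 43 rows (11 in glycolysis, 6 in pyruvate entry and 11 in the TCA cycle), where 18.6% of all genes were lowest in it, and the highest for 1 row (DLST), against 19.3%. C 11 had the lowest level for 4 rows and the highest for 4, against 7.7% and 13.4% of all genes. The median log2 ratio of C 12 to the median of the other libraries was -2.22 over the 43 rows and -0.21 over all genes. The 43 rows took 0.269% of all counts in C 12 and 1.31% to 2.51% in the other libraries. Epiblast markers in C 12 were near 0, with POU5F1 at 0.627 CPM and TDGF1 at 0, and the syncytiotrophoblast gene ERVFRD-1 was at 5493 CPM. C 11 was also low in epiblast markers, with POU5F1 at 8.51 CPM and NANOG at 0.637. What part cell makeup or RNA quality had in these levels was not tested.

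PGK1, PDHA1, IDH3G and PDK3, which lie on the X chromosome in primates, varied with a division of the libraries that ran across the groups. Summed over 8 Y-linked genes, 11 libraries had 0.150 to 59.1 CPM and 14 had 417 to 807 CPM. The first kind made up 1 of 5 C, 6 of 10 T, 3 of 8 WSD and 1 of 2 TWSD libraries, and embryo sex is not in the labels. PGK1, the first ATP-making step of glycolysis, ran from 1004 to 1594 CPM in the 6 T libraries with few Y-linked counts and from 399.8 to 825 in the other 4. In WSD it ran from 892 to 1591 CPM in 3 libraries and from 409.7 to 706 in the other 5. PGK1 did not overlap between the 2 kinds in either group, which held for 0.144% of all genes.

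Leaving out C 12, the mean log2 level in libraries with few Y-linked counts exceeded that in the others by 0.96 for PGK1, 0.92 for PDHA1, 0.78 for IDH3G and 0.69 for PDK3. These rank 1, 2, 4 and 5 of the 43 rows, with MPC1 (0.91) at rank 3, and lie at the percentiles 97.8, 97.4, 96.0 and 94.8 of all genes tested. The median over the 43 rows was 0.09. With C 12 left out, no control was among the 10 libraries with few Y-linked counts, against 4 of the 14 others. Treatment and this division therefore cannot be told apart in these pooled differences, ranks and percentiles. PDHA1 did not overlap between the 2 kinds in WSD (754 to 1061 against 574 to 727 CPM), as did 5.4% of all genes, and overlapped in T. MPC1 and MPC2, which are autosomal, did not overlap in WSD either. PDK3 did not overlap in T (24.9 to 40.3 against 11.9 to 22.6 CPM), as did 0.488% of all genes, and overlapped in WSD. These values were looked at after the data had been seen and are given without a test. With a term for Y-linked counts in the fit, HK2 was at 1.91 and 1.86 in T and WSD against C (adjusted p = 0.0102 and 0.0134). In that fit HK1 in T (1.27, adjusted p = 0.0344) and CS in T and WSD (0.94 and 0.87, adjusted p = 0.0256 and 0.0407) also passed. Over all genes it called 0.739% higher and 5.01% lower in T, and 0.553% and 3.5% in WSD.

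**Figure D5:**
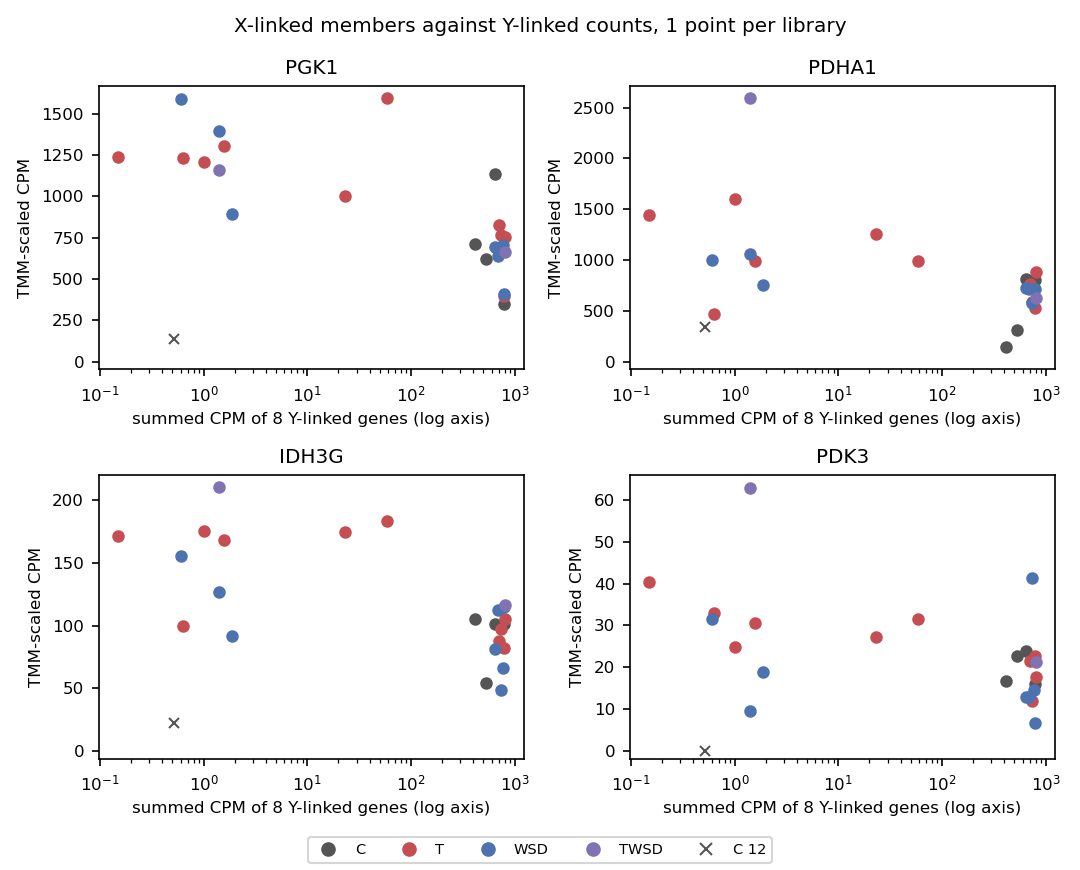
Each point is 1 library, with the summed CPM of 8 Y-linked genes on a log axis and the TMM-scaled CPM of the gene on the vertical axis. PGK1 lies at 892 CPM or above in every library with under 60 CPM of Y-linked counts except C 12 (cross), which stands at 137. Libraries with many Y-linked counts reach 1137 CPM (C 2), so PGK1 overlaps between the kinds over all groups.

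Further genes of these pathways gave no call. The list held 67 symbols, among them other isoforms (HK3, PKLR, LDHC, PDK2, PDK4), PFKFB enzymes, glucose and lactate transporters, the pentose phosphate pathway, shuttles and succinate dehydrogenase assembly factors. Of these 66 were matched and 53 tested. In T against C 0 rose and 0 fell, and 11 were lower and 4 higher at an unadjusted p under 0.05, where 13.9% and 4.36% of all genes were. In WSD against C the counts were again 0 and 0, with 10 lower and 4 higher unadjusted, against 13.9% and 4.41%. The median change of the 53 was 0.00 in T and -0.07 in WSD. In both comparisons the smallest p was that of ADPGK, a hexokinase that uses ADP, at -1.07 ± 0.32 in T (adjusted p = 0.0572) and -1.16 ± 0.34 in WSD (adjusted p = 0.0505). ADPGK is named here after its values were seen.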

How the data were processed

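RNA was sequenced from rhesus macaque blastocysts (25 libraries). The authors deposited raw counts per gene, whole numbers that were not normalized. Per the submitters' processing notes, FastQC 0.11.8, Trimmomatic 0.39 and STAR 2.7.0 were used with the build Mmul_10. The counter, annotation release, strand setting and library preparation were not given in the sources used here. Counts of overlapping or antisense genes and of close copies may therefore be mixed. A symbol table named 24173 of 35395 identifiers.

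A gene was tested where 5 or more libraries reached 1 CPM. Counts were scaled by TMM and modelled by group across the 25 libraries in edgeR 4.0.16 (R 4.3.3) with robust quasi-likelihood. Tests were quasi-likelihood F-tests adjusted by Benjamini-Hochberg over 13934 genes, with a threshold of 0.05. SE is the log2 change divided by the square root of F. The biological coefficient of variation was 0.900. Ratios of isoform pairs used log2 CPM (prior count 2) and exact two-sided permutation tests over 3003, 1287 and 43758 label assignments, adjusted over 27 tests. TWSD ratios have no test. DESeq2 1.42.0 and limma 3.58.1 were alternatives, and the scripts were tested on simulated data. In counts simulated with a single spread per gene shared by all groups, the T against C test called 3 of 100 genes changed 2-fold. It called 49 of 100 changed 8-fold, with 4 false calls among the unchanged genes. The real controls could vary more than the treated groups, as in the HK2 to HK1 ratio (SD 1.26 in C, 0.46 in T and 0.27 in WSD). The simulated false calls therefore do not measure the error rate under such unequal spread. A change that was not called is therefore not evidence of no change.

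The members, lists and tests were chosen with earlier results of these data known. Values in every library, or the range and median in groups over 5, are given for members that passed and for 5 isoform families. Otherwise the 5 members with the smallest p are named in each comparison, and further genes as descriptions of their step. Levels per length and protein identity were planned but not analysed here. Within groups no library repeated another (smallest chi-square per gene 73.1 over 84 pairs).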

Additional observations from a re-analysis of the deposited data

Results flagged for a closer look

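In groups of 4 to 10 libraries, the highest and lowest library of each member was compared with the others by Dixon's gap over range. The gap was taken on log2 CPM, where low values stand out more readily than high ones, in 129 tests over C, T and WSD. About 1 in 20 would stand out in independent tests of normally spread values. The members share libraries and low values stand out more readily, so that rate is no yardstick here. Of the tests, 17 stood out, each of them a low library. C 12 was low for 9 genes: GPI (9.51 CPM), GAPDH (73.7 CPM), ENO1 (328 CPM), LDHA (42.9 CPM), PDK1 (7.63 CPM), PDK3 (0 CPM), IDH2 (0.366 CPM), SUCLG2 (6.90 CPM) and FH (54.1 CPM). These cover the start, middle and end of glycolysis, kinases of pyruvate dehydrogenase and 3 steps of the TCA cycle. T 1 was low for 5 genes: PDHB (405 CPM, against 936 to 1503 in the other T libraries), DLAT (183 CPM), DLD (283 CPM), CS (390.3 CPM) and SUCLA2 (138 CPM). Of these, 3 encode subunits of the pyruvate dehydrogenase complex. T 10 was low for PFKM (0.0912 CPM, against 8.30 to 39.2 CPM) and T 9 for PFKP (0.351 CPM, against 3.90 to 48.2 CPM). WSD 3 was low for SUCLG1 (221 CPM, against 271 to 312 CPM).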

How the results depend on the processing

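The number of members called changed with the setting. In T against C 1 member (HK2) was called by the fit reported, 0 with library totals, 4 with DESeq2, 0 with limma voom with quality weights, 0 without C 8, C 11 and C 12, 0 without C 12 and T 1, 0 with the replicate block, 3 with a term for Y-linked counts and 0 without the 4 CGA libraries. Leaving out 1 library at a time gave 0 to 7 (7 without C 1, 0 without C 8, C 12, T 8 or T 10). In WSD against C 1 member was called, 3 with DESeq2, 0 with limma voom, 0 without C 8, C 11 and C 12, 0 without C 12 and T 1, 0 with the replicate block, 2 with the Y-linked term, 0 without the 4 CGA libraries, and 0 to 5 leaving out 1 library (5 without C 1, 0 without C 8 or C 12). In TWSD against C it was 0, 6 with DESeq2, 1 at a minimum of 5 CPM, 3 without C 12 and T 1, and 0 to 13 leaving out 1 library (13 without C 1, 11 without TWSD 3). Over all genes, leaving out C 1 gave 1287, 1110 and 748 calls in T, WSD and TWSD against C, and leaving out TWSD 3 gave 2786 in TWSD against C, 2707 against the single treatments and 2245 for the interaction. Against the single treatments it was 0, 1 without the 4 CGA libraries (SUCLA2) and 0 to 9 leaving out 1 library; for the interaction 0 and 0 to 3. The Y-linked term and the removal of the 4 CGA libraries were chosen after seeing the data.

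HK2 kept its direction in all 36 alternatives of both comparisons (0.68 to 2.17 in T, 0.77 to 2.30 in WSD) and its call in 26 and 29. Over all genes, the 573 calls in T became 240 with library totals, 1102 with DESeq2, 0 with limma voom, 0 without the 3 controls and 300 without C 12 and T 1, and the 567 in WSD became 321, 1185, 0, 1 and 167. The 167 in TWSD became 96, 1995, 0, 20 and 519, and 92 with no filter. The 14 against the single treatments became 5, 675, 0, 517 and 361, and 34 at 5 CPM, while the 10 of the interaction became 5, 395, 0, 3, 4 (no filter) and 21 (5 CPM). Without the 4 CGA libraries the calls in T, WSD, TWSD and against the single treatments were 0, 1, 71 and 626. Scaling by library totals moved the median of all genes from -0.12 to 0.02 in T and -0.01 in WSD, with members at 0.45 and 0.51.

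Of 16 same-numbered pairs of libraries, 3 correlated above 0.1 once group means were taken out (r from -0.376 to 0.222). Differently numbered pairs were not compared in this way, so these values cannot tell whether a replicate number marks a shared mother or day. With the replicate block edgeR called no gene in any comparison (786 and 566 genes at an unadjusted p under 0.05 in T and WSD against C), and HK2 stood at 1.72 in T and 1.62 in WSD (adjusted p = 0.848 and 0.997).

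No isoform ratio passed under the alternatives that give a p (the replicate block gives values alone), and several changed sign, with the cause not tested. In T against C, SUCLG2/SUCLA2 was -0.00424 with a prior count of 5. Without C 8, C 11 and C 12, PFKP/PFKL was 1.47, PFKM/PFKL 0.22, ALDOC/ALDOA 0.95 and IDH2/IDH1 -0.19 in T, and PFKP/PFKL 0.36, PFKM/PFKL 0.40, PDK3/PDK1 -0.40 and IDH2/IDH1 -0.57 in WSD. With the block, PFKM/PFKL was 0.35, LDHB/LDHA 0.69, SUCLG2/SUCLA2 -0.80 and MDH2/MDH1 -0.19 in T, and PFKM/PFKL 0.84, ALDOC/ALDOA -0.49, LDHB/LDHA 0.48, PDK3/PDK1 -0.69 and SUCLG2/SUCLA2 -0.65 in WSD. Leaving out 1 library, the ranges that crossed 0 in T against C were LDHB/LDHA -0.57 to 0.089, PFKM/PFKL -0.79 to 0.18, PFKP/PFKL -1.42 to 0.26 and SUCLG2/SUCLA2 -0.36 to 0.44. In WSD against C they were ALDOC/ALDOA -0.87 to 0.90, IDH2/IDH1 -0.078 to 1.69, PDK3/PDK1 -0.43 to 0.94, PFKM/PFKL -0.61 to 0.19 and SUCLG2/SUCLA2 -0.19 to 0.62, and in T against WSD PFKM/PFKL -0.38 to 0.56. Against the single treatments MDH1 ran from -0.34 to 1.43 and SDHB from -0.10 to 1.39, and SDHB in the interaction from -0.19 to 1.31. Low counts limit PFKM, PFKP, ALDOC, PC, MPC2 and SDHC, where a few reads set the value in some libraries. With 2 TWSD libraries, no comparison of that group can separate library from treatment.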
